A study of Mus musculus with 2 samples.

Results

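The genes of the germline piRNA pathway described here are 10 protein-coding genes taken from a list of names (Piwil1, Piwil2, Piwil4, Mov10l1, Mael, Asz1, Tdrd1, Tdrd9, Gtsf1 and Ddx4), out of 21887 protein-coding genes on mouse chromosomes 1 to 19, X and Y. All 10 were found by symbol in the RefSeq gene table. The rule is by name and uses no measured value, but the names were chosen with earlier results of these data known, so the counts below describe these genes and are no independent evidence about the pathway. The data are ChIP-seq peak lists for DPPA2, which binds DNA and is made in pluripotent and early germ cells, in R1/E cells, a mouse embryonic stem cell line wild type for p53 and kept on gelatin with leukemia inhibitory factor. One list comes from untreated cells (1 library) and the other from cells given adriamycin, a DNA-damaging drug, for 8 h (1 library). The purpose of the experiment was to find where DPPA2 sits on DNA after damage. The labels give both libraries the same batch entry and the same antibody, and the genotype entry of the treated library holds its treatment. Neither group was replicated, so the values below compare 2 libraries and no test between treatments was possible. Peak lists hold no expression values, so the identity of the cells could not be checked against marker genes.

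piRNAs are small RNAs of germ cells that guide PIWI proteins to transposon transcripts, and in fetal male germ cells they also lead to methylation of transposon DNA. Their production needs helicases, scaffold proteins on the mitochondrial surface and Tudor domain proteins that collect PIWI proteins in germ granules. In embryonic stem cells and most somatic cells the promoters of many such germline genes are kept silent by DNA methylation and by a Polycomb complex that holds the DNA-binding proteins E2F6 and MGA with its partner MAX. DPPA2 works with DPPA4 and is known for occupying CpG-rich promoters in embryonic stem cells.

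The promoters of the 5 members that had a peak near their tabulated start in at least 1 list are shown first, because those peaks are the main result, with that of Tdrd1, which had no peak within 50 kb, for contrast. Each sequence is the 250 bases before the tabulated RefSeq start (assembly GRCm38.p6, also called mm10), read 5′ to 3′ on the gene's own strand. This start can lie inside the RefSeq span of the gene. The printed bases of Ddx4 lie wholly within its span, and those of Piwil1, Mov10l1 and Tdrd1 partly within theirs. Capitals mark CACGTG, the E-box letters that MGA and MAX are known to bind, and the E2F-type letters GGCGGGA or TTCCCGC, on either strand. The positions are chr5:128735996-128736245 (plus strand) for Piwil1, chr15:88982744-88982993 (plus) for Mov10l1, chr1:166238745-166238994 (minus) for Mael, chr6:18109062-18109311 (minus) for Asz1, chr13:112652311-112652560 (minus) for Ddx4 and chr19:56825959-56826208 (plus) for Tdrd1.
Piwil1: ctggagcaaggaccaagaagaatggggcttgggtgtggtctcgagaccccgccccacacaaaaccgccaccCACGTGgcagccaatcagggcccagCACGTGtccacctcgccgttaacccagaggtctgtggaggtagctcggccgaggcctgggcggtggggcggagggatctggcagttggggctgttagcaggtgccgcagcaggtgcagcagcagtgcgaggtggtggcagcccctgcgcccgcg
Mov10l1: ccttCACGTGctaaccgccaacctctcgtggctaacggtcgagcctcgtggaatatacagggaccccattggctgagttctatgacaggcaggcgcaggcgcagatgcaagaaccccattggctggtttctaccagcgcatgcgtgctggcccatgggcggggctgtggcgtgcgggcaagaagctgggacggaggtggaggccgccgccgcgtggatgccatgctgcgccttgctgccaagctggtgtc
Mael: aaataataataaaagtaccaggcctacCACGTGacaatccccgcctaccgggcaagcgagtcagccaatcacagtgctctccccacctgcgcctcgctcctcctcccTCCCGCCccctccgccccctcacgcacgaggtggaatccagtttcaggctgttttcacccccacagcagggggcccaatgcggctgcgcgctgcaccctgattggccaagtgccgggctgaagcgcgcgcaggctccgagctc
Asz1: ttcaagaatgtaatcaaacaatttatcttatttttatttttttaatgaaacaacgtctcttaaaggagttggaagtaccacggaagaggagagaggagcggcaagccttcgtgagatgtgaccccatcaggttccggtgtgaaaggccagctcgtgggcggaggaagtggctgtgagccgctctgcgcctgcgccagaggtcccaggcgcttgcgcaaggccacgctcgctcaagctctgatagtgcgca
Ddx4: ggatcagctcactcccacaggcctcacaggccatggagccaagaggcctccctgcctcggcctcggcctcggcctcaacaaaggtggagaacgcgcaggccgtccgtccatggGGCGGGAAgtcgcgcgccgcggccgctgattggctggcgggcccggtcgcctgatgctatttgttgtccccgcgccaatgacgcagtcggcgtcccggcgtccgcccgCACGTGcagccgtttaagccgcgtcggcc
Tdrd1: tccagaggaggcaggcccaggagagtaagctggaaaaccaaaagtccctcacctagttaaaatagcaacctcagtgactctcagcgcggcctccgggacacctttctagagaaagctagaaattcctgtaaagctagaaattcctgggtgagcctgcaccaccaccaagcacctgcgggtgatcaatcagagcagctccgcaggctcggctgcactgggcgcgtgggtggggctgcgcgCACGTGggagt

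DPPA2 peaks lay at an end of 6 of the 10 genes in at least 1 list. Untreated, a peak summit lay no more than 1 kb from an end of 3 members (Mael, Asz1 and Ddx4), while 5.78% of all protein-coding genes had one. With adriamycin 5 members had one (Piwil1, Piwil2, Mov10l1, Mael and Ddx4), beside 16.0% of all genes. Mael and Ddx4 were in both lists, as were 4.51% of all genes. Piwil1, Piwil2 and Mov10l1 had one with adriamycin alone (11.5% of all genes), and Asz1 the other way round (1.27%). Piwil4, Tdrd1, Tdrd9 and Gtsf1 had no gene-end summit in either list, like 82.7% of all genes. The adriamycin list was longer, with 16229 peaks against 7043. When it was reduced to its 7043 peaks of highest −log10 q, 3 members kept a gene-end peak (Mov10l1, Mael and Ddx4), as many as untreated, and the share of all genes was 5.72%. With a −log10 q of at least 5 in both lists the counts were 1 untreated (Asz1) and 3 with adriamycin (the same 3), beside 2.10% and 7.12% of all genes, and no member was in both. The share of all genes in both lists at that threshold was not computed, so this absence says nothing particular about the members.

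With the gene body and 50 kb on either side included, 10 untreated and 20 adriamycin summits were assigned to the members, of which 3 and 5 lay at gene ends, 4 and 8 further inside a gene, and 3 and 7 outside. The genes with a summit further than 1 kb inside them numbered 4 untreated (Piwil1, Mov10l1, Tdrd9 and Gtsf1) and 5 with adriamycin (the same 4 and Mael). Over all protein-coding genes these shares were 8.16% and 17.9%, but the members were long genes, with a median length of 49.1 kb against 17.2 kb, and a longer gene offers more room for a summit. A summit at an end, inside or within 50 kb was listed for 8 members in each list, against 36.4% of all genes untreated and 66.6% with adriamycin. Tdrd1 had none in either list, as had 31.1% of all genes.

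**Figure D1:**
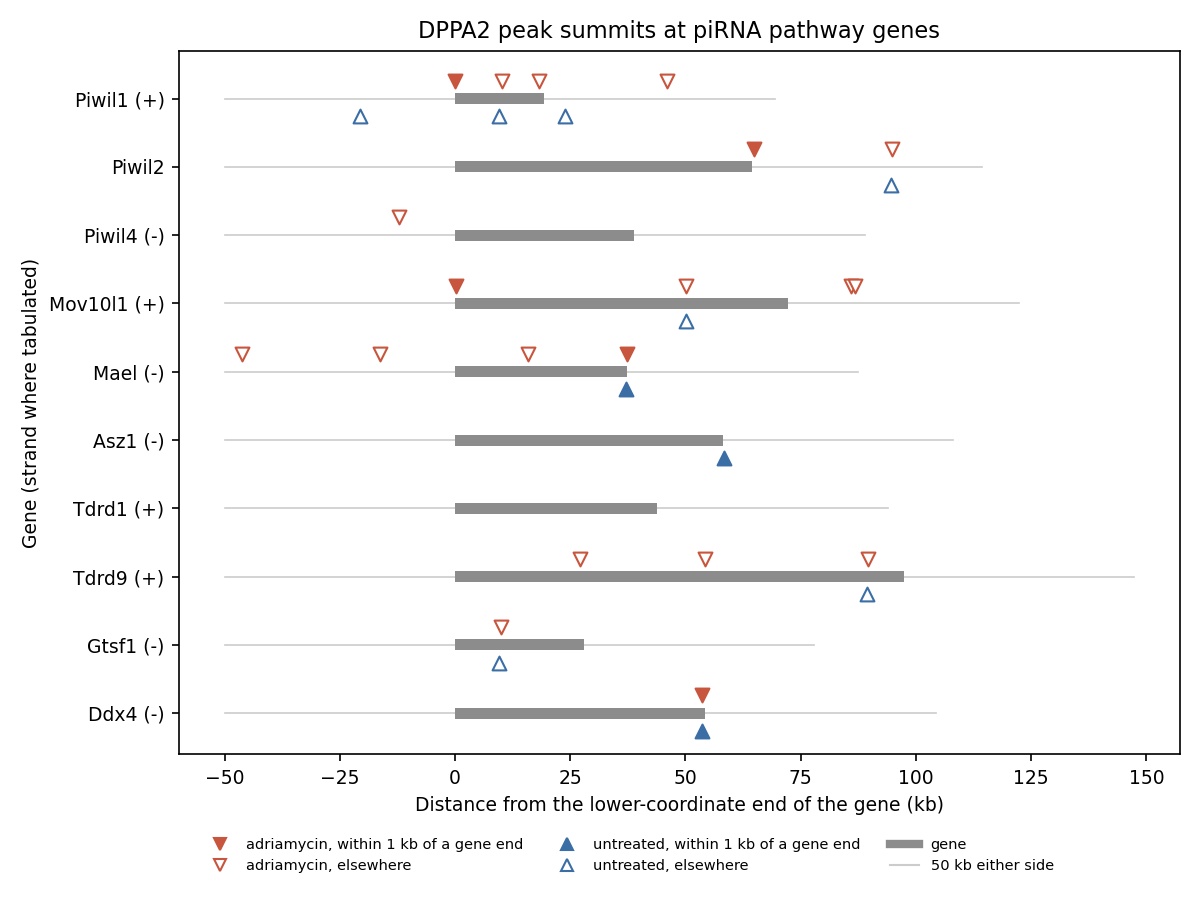
Position of every DPPA2 summit (triangles) at the 10 genes, in kb from the lower-coordinate end of each gene (grey bar), with the strand where it is tabulated; blue points up for the untreated and red points down for the adriamycin library, and filled symbols lie within 1 kb of a gene end. Filled red symbols sit at 5 genes and filled blue symbols at 3, and the line of Tdrd1 is empty.

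The peaks were of ordinary strength. The fold enrichment used here is the authors' peak caller's ratio of the summit over the local background, and it ranks peaks within a list only. Its median over member peaks was 4.57 untreated and 5.21 with adriamycin, beside 5.16 and 5.10 over all peaks of each list. The pileup counts the fragments that cover a summit; it was recovered from each fold and p-value, is not scaled between libraries, and gives the depth behind a peak. It ran from 11 to 25 fragments at member peaks in both libraries, with a median of 14 in both, the same as over each whole list. Intervals given after a pileup are exact 95% Poisson intervals, which cover counting error only.

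The PIWI genes encode the proteins that bind piRNAs. Piwil1 (MIWI, the PIWI protein of meiotic and later male germ cells, chromosome 5, 128736071 to 128755474) had an adriamycin peak at its start, 128735959 to 128736178, with the summit 49 bp outside the gene and 224 bp upstream of the tabulated start. Its fold was 4.30 and its pileup 12 (6.20 to 21.0). The nearest untreated summit lay 9603 bp away, and no untreated peak was listed at the start. Inside Piwil1 each list had a peak in the middle of the gene, but the peaks did not overlap. The untreated one had a pileup of 16 (9.15 to 26.0), and the adriamycin one, 597 bp further along by summit, a pileup of 13 (6.92 to 22.2). A second internal adriamycin peak lay 1096 bp from the far end, just outside the 1 kb window, and was the strongest at Piwil1, its fold being 5.86 and its pileup 18 (10.7 to 28.4).

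Piwil2 (MILI, the PIWI protein that acts in fetal and adult germ cells, chromosome 14, 70372477 to 70436898) had an adriamycin peak at 70437067 to 70437316, its summit 360 bp outside its higher-coordinate end. It had the lowest fold of the 5 adriamycin gene-end peaks, 3.73, with a −log10 q of 2.52 and a pileup of 11 (5.49 to 19.7). The nearer end of the next gene, Polr3d, which encodes a subunit of RNA polymerase III, lay 1490 bp from that summit. Both libraries also shared a peak 30.2 kb from the same end of Piwil2, inside the neighbouring gene Phyhip, with pileups of 14 untreated and 12 with adriamycin. Piwil4 (MIWI2, the nuclear PIWI protein that directs transposon methylation in fetal germ cells, chromosome 9, 14701776 to 14740672) had no summit at its ends or inside it. Its only summit within 50 kb was in the adriamycin list, 12051 bp beyond its lower-coordinate end, which is its far end, where 11 fragments (5.49 to 19.7) gave a fold of 4.84. Untreated, the closest summit was 263617 bp off.

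Mov10l1, Mael and Asz1 act in making piRNAs and in PIWI silencing. Mov10l1 (the helicase that feeds piRNA precursors into processing, chromosome 15, 88982891 to 89055152) had the gene-end peak with the highest pileup among members, at 88982757 to 88983256 in the adriamycin list. Its summit lay 112 bp downstream of the tabulated start, where 16 fragments (9.15 to 26.0) gave a fold of 5.31. The same summit lay 413 bp from the end of Mlc1, a gene of brain astrocytes on the other side, so that it cannot be given to Mov10l1 alone. In the untreated list the nearest summit was 49823 bp away, at an internal peak that both lists shared. That internal peak, about 22 kb from the far end of the gene, had pileups of 19 (11.4 to 29.7) untreated and 20 (12.2 to 30.9) with adriamycin. Beyond the far end, 2 adriamycin peaks with pileups of 24 and 18 lay inside Panx2, over the highest local backgrounds of any member peak, 3.88 and 4.04 fragments.

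Mael (maelstrom, needed for piRNA-guided transposon silencing in the male germ line, chromosome 1, 166201385 to 166238744) had a peak at its start in both lists. The untreated peak at 166238369 to 166238677 had its summit 210 bp downstream of the start, and the adriamycin peak at 166238362 to 166238795 had its summit 87 bp downstream. The pileup was 14 (7.65 to 23.5) in both libraries. The folds were 4.36 untreated and 5.68 with adriamycin, and the local background under the peak was 2.44 fragments untreated and 1.64 with adriamycin. Equal numbers of fragments covered the summit, and the fold differed because its denominator did. The adriamycin list held 3 further peaks around Mael that the untreated list did not, 1 inside the gene and 2 beyond its far end, the most distant of them inside Gpa33.

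Asz1 (GASZ, a scaffold protein on germ cell mitochondria, chromosome 6, 18050964 to 18109061) was the only member with a gene-end peak in the untreated list alone. The peak at 18109077 to 18109401 had its summit 166 bp upstream of the start, in the printed promoter, 235 of whose 250 bases it covered. Its fold of 6.10 and its −log10 q of 6.39 were the highest among the 3 untreated gene-end peaks of members, and its pileup was 14 (7.65 to 23.5) over the lowest local background relative to its library of any member peak, 1.22 times the genome-wide value. In the adriamycin list no summit was found within 50 kb, and the nearest lay 106221 bp from the gene.

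Ddx4, Tdrd1, Tdrd9 and Gtsf1 encode germ granule proteins and PIWI cofactors. Ddx4 (VASA, a helicase and standard marker of germ cells, chromosome 13, 112598333 to 112652633) had a peak in both lists at its start side. The untreated peak at 112651851 to 112652389 and the adriamycin peak at 112651830 to 112652160 had summits 392 and 349 bp downstream of the tabulated start. The pileups were 12 (6.20 to 21.0) untreated and 13 (6.92 to 22.2) with adriamycin. The folds were 4.58 and 5.88, over local backgrounds of 1.84 and 1.38 fragments.

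Tdrd9 (a Tudor domain helicase that works with MIWI2, chromosome 12, 111971488 to 112068854) carried the strongest member peak, and it lay inside the gene. At 112060667 to 112061146 untreated and 112060679 to 112061215 with adriamycin, with summits 16 bp apart and 7.9 kb from the far end, the folds were 9.70 and 9.42. These folds ranked 221 of 7043 untreated peaks and 578 of 16229 adriamycin peaks. The pileup was 25 (16.2 to 36.9) in both libraries. The adriamycin list had 2 more internal peaks in Tdrd9, with pileups of 14 (7.65 to 23.5) and 21 (13.0 to 32.1), and neither had an untreated counterpart. Gtsf1 (a small zinc finger protein that binds PIWI proteins, chromosome 15, 103402458 to 103430445) had 1 internal peak in each list. These overlapped by 160 bp, but their summits were 414 bp apart, with pileups of 12 (6.20 to 21.0) untreated and 13 (6.92 to 22.2) with adriamycin, and both also lay inside the lncRNA gene Gm52195. Tdrd1 (a Tudor domain protein that binds MILI, chromosome 19, 56826171 to 56870012) had its nearest summits 415733 bp away untreated and 145012 bp away with adriamycin.

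**Figure D2:**
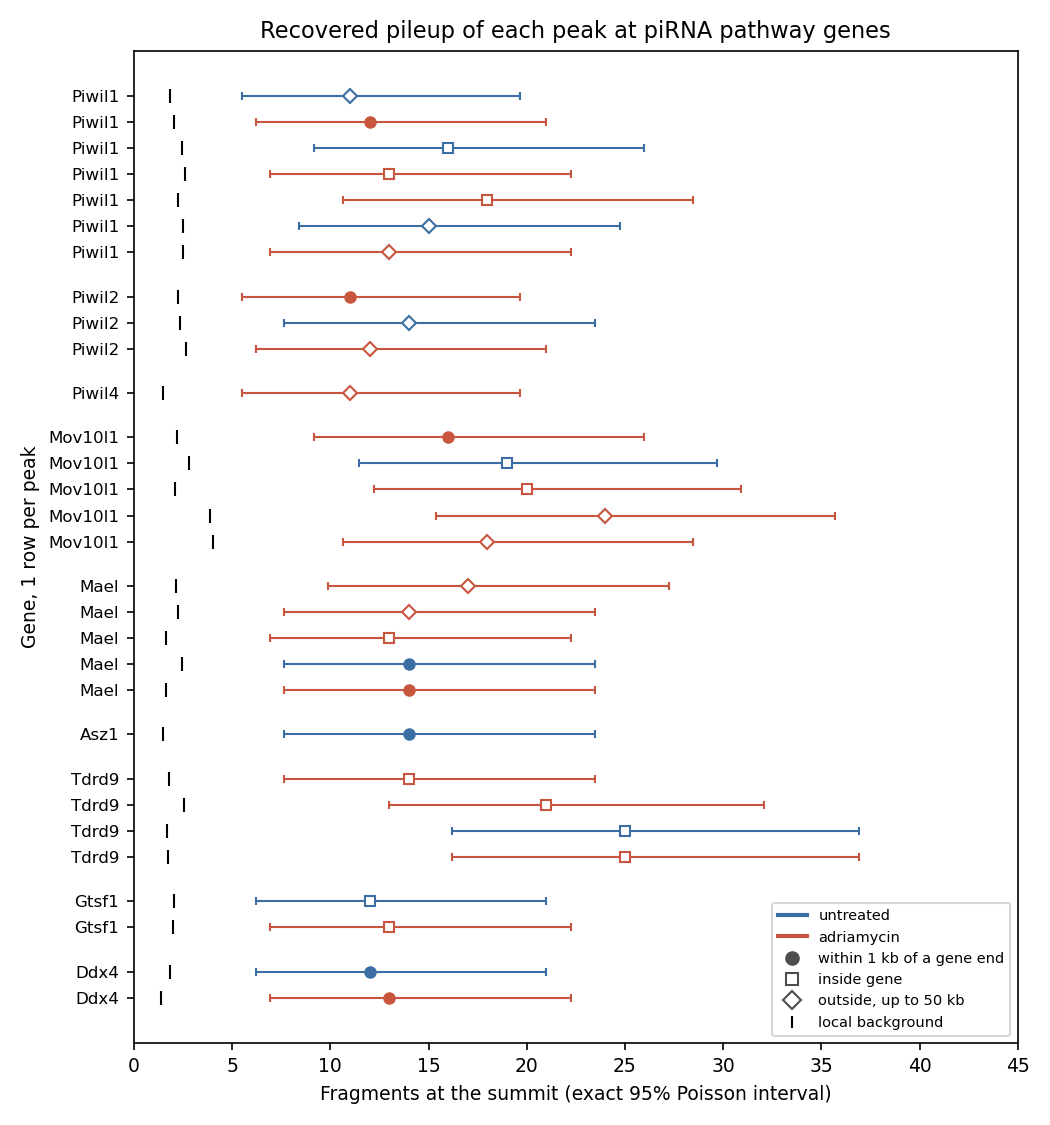
Fragments at the summit of each member peak (symbols) with the exact 95% Poisson interval (bars), 1 row per peak in coordinate order within a gene; blue is untreated and red adriamycin, filled circles are gene-end peaks, open squares lie inside a gene and open diamonds outside, and the black tick is the local background. Pileups run from 11 to 25 fragments, the Tdrd9 peak shared by both libraries stands highest at 25.

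Both libraries had a peak at 6 places, those at the starts of Mael and Ddx4, those inside Mov10l1, Tdrd9 and Gtsf1, and the one beyond Piwil2. Their pileups, not scaled between the libraries, differed by at most 2 fragments. These peaks are selected by having been called in both lists, and at 12 to 25 fragments the intervals are too wide to show whether occupancy differed. The fold was higher in the adriamycin list for 4 of the 6, and lower at Tdrd9 and at the peak beyond Piwil2. By overlap of at least 1 bp, 6 of 10 untreated and 6 of 20 adriamycin member peaks had a counterpart. With overlap of at least 50% of both peaks, 4 in each list had one, and the places beyond Piwil2 and inside Gtsf1 were lost. The share of all peaks in each list with a counterpart was not computed. The lists also differed in length, so these counts describe the members only.

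A missing call can mean a summit just under the calling limit. Each unmatched pileup was therefore scaled by the ratio of the genome-wide backgrounds (1.19 fragments untreated, 1.03 with adriamycin) and set beside the smallest pileup called in the other list at a like local background. This scaling assumes equal enrichment per unit of background. Summits are also chosen as the maximum of a peak, so their pileups run high. The scaled interval covers the counting error of the library with the peak only, and the count in the other library varies as well. At Asz1 the scaled value was 12.1 fragments (6.60 to 20.2), and the adriamycin list called peaks from 7 fragments upward there. At Mov10l1 it was 18.6 (10.6 to 30.2) with untreated peaks called from 11. The start of Piwil1 had 13.9 (7.20 to 24.3) against 10, and the end of Piwil2 12.8 (6.37 to 22.8) against 11. At all 4 genes the scaled value was above the smallest called pileup and its interval reached below it, so that a difference between the libraries was not detectable there at this depth. Of the 14 unmatched adriamycin peaks the whole interval was above the smallest called pileup for 3, none of them at a gene end. These were the Piwil1 peak near its far end (lower bound 12.4 against 11), the peak inside Gpa33 beyond Mael (11.5 against 10) and the stronger of the unmatched Tdrd9 peaks (15.1 against 11). A further one, the peak of 24 fragments beyond Mov10l1, had a lower bound of 17.8 against a smallest called pileup of 18, which rests on only 31 like peaks; against the 15 fragments that the lowest −log10 p in the untreated list would need there, it too was above. Of the 4 unmatched untreated peaks it was so for 0. Because the counting error of the other library is left out, an interval above the smallest called pileup does not show a difference between the libraries. The same shares over all unmatched peaks of each list were not computed, so these counts cannot be called particular to the members. Whether the unmatched peaks follow the treatment or the library cannot be told apart, because each group had 1 library.

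**Figure D3:**
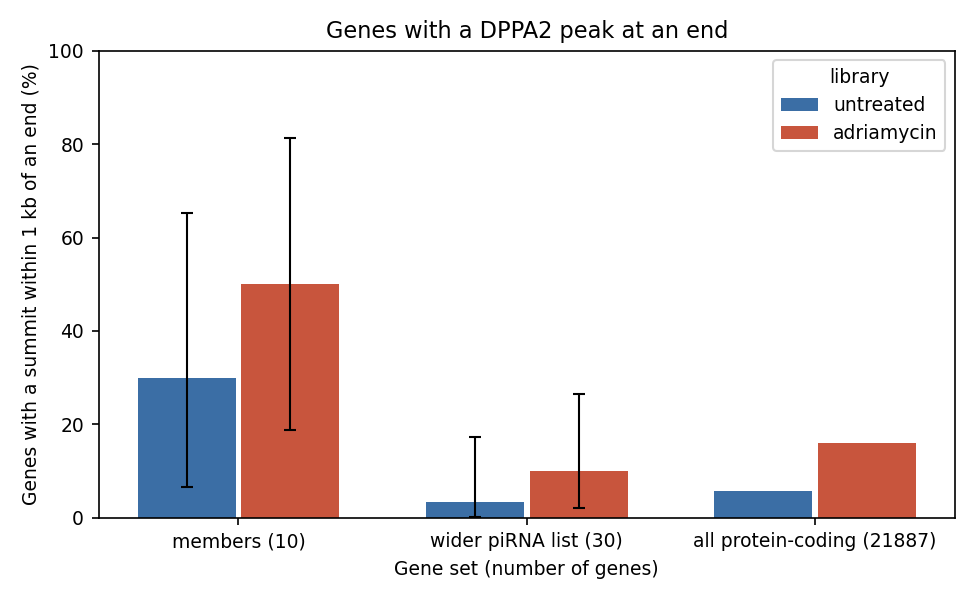
Share of genes with a summit within 1 kb of an end (percent, axis from 0) for the 10 members, the wider piRNA list of 30 genes and all 21887 protein-coding genes, untreated in blue and adriamycin in red; black bars, on the lists of 10 and 30 only, are exact 95% binomial intervals over genes. Members stand at 30.0% and 50.0% with wide intervals, and the wider list at 3.33% and 10.0%, below all genes at 5.78% and 16.0%.

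A wider list of 31 genes linked to piRNAs or to small RNA silencing in germ cells was looked at in the same way, and 30 of them were found by symbol (Dnmt3c was not). Gene-end summits were listed for 1 of these 30 genes (3.33%, exact binomial interval 0.0844 to 17.2%) untreated and for 3 (10.0%, 2.11 to 26.5%) with adriamycin. The members' shares were 30.0% (6.67 to 65.2%) and 50.0% (18.7 to 81.3%). The wider list lay near the shares of all genes, and its difference from the members was not tested. In the wider list Ddx39a, which encodes a nuclear RNA helicase, had an untreated peak 185 bp from an end, where 19 fragments (11.4 to 29.7) gave a fold of 5.52. With adriamycin the genes were Tdrd3, a Tudor domain gene also active outside the germ line (39 bp, fold 5.00), Btbd18, a regulator of piRNA precursor transcription (240 bp, fold 5.48), and Tex19.1, a germline gene that restrains transposons (141 bp, fold 4.40). None of the 30 had a gene-end summit in both lists (exact binomial interval 0 to 11.6%), and the 4.51% of all genes lies within that interval.

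Where a start was tabulated, the gene-end peaks of members sat near it. A start and strand were tabulated for 9 members, all except Piwil2, and 7 of the 8 gene-end summits belonged to these genes. Each of the 7 lay within 500 bp of the tabulated start, at distances of 87 to 392 bp. Mael and Ddx4 gave a summit from each list. The share of all gene-end summits that lie this close to a start was not computed, so this cannot be called particular to the members. A summit within 1 kb of the outermost start was found for 3 of 9 members untreated and 4 of 9 with adriamycin, against 5.54% and 15.1% of the 17492 protein-coding genes with a tabulated start.

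Members with a peak at the start had more CpG in their promoters than those without, except Tdrd1. In the window of 300 bases (250 before and 50 after the start), Asz1 had 17 CpG dinucleotides, Piwil1 18, Mov10l1 20, Mael 24 and Ddx4 38. Of the members without such a peak, Tdrd9 had 10, Piwil4 11 and Gtsf1 13, while Tdrd1 had 20. Over all tabulated protein-coding genes the median was 13 (quartiles 4 and 24), and over those with a start summit it was 26 in both lists (quartiles 16 and 35 untreated, 17 and 35 with adriamycin). Member promoters with a peak therefore lay below the median of start-bound promoters, apart from Ddx4. With 9 promoters this is a description and was not tested.

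**Figure D4:**
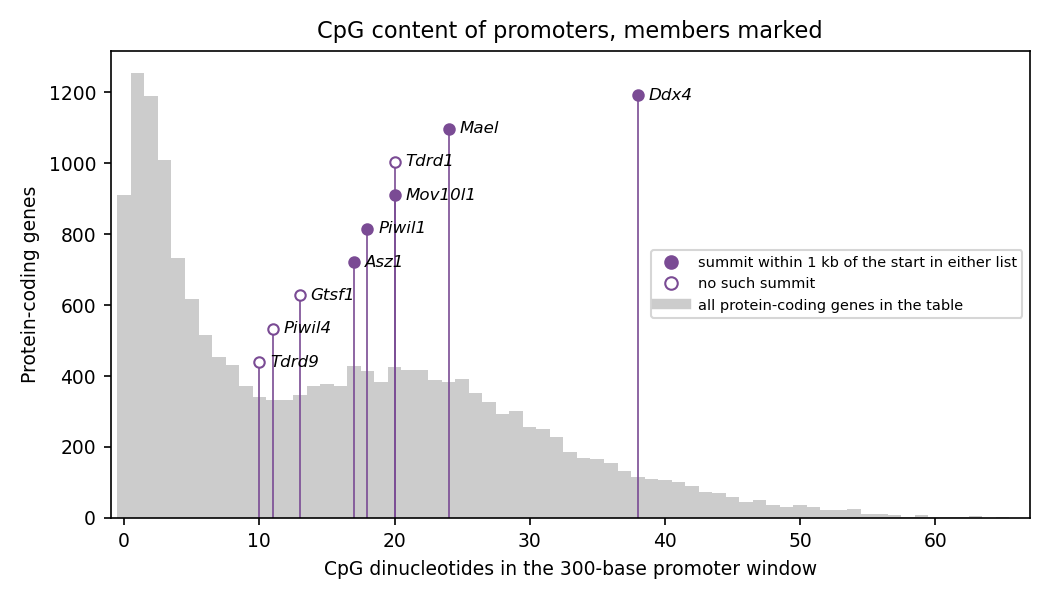
CpG dinucleotides in the 300-base promoter window of protein-coding genes (grey bars, number of genes) with the 9 members that have a tabulated start marked at their own count; marker heights only separate the names. Filled markers, with a summit within 1 kb of the start in either list, run from 17 to 38, and open markers from 10 to 20.

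The E-box letters were common in member promoters. CACGTG, which reads the same on both strands, occurred in 6 of the 9 windows (Piwil1 and Tdrd9 with 2 matches each, Mov10l1, Mael, Tdrd1 and Ddx4 with 1 each), against 7.91% of all 17492 windows. Promoters with a start summit held it in 9.60% of cases untreated and 9.86% with adriamycin. Among members with a start summit, Piwil1, Mov10l1, Mael and Ddx4 had the letters and Asz1 did not. Among those without one, Tdrd1 and Tdrd9 had them and Piwil4 and Gtsf1 did not. Whether the letters go with the peaks was not tested, with only 9 promoters. GGCGGGA or its reverse complement occurred in 2 of 9 windows (Mael and Ddx4), against 15.0% of all windows, and TTCCCGC or its reverse complement in 1 (Ddx4), against 6.01%. In Ddx4 these 2 matches overlap, and 1 of the 2 in Mael lies after the start, outside the printed bases. The peaks covered 183 of the 250 printed bases at Piwil1 and 237 at Mov10l1, both with adriamycin. At Mael 51 were covered with adriamycin and 0 untreated, and at Ddx4 79 untreated and 0 with adriamycin, since those summits lie downstream of the start. A match to these letters is a description of the sequence, and binding of E2F6, MGA or MAX was not measured.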

How the data were processed

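DPPA2 ChIP-seq libraries from R1/E cells (1 untreated, 1 adriamycin) were analysed as deposited peak lists, 1 per library. The submitters' processing notes name build mm10 and, without their roles, MACS3 3.0.0b1, Bowtie2 2.5.1, FastQC 0.12.1, deepTools 3.5.1 and SAMtools. Whether peaks were called against input, and with which filters, is not given in the sources used here. The authors' deposited values were the fold (a ratio of summit over local background), −log10 p, −log10 q, a score of about 10 times −log10 q, and the summit's distance from the peak start. The lists held 7043 and 16229 peaks on chromosomes 1 to 19, X and Y.

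Pileups and local backgrounds were recovered by finding the whole fragment number that gives both the deposited fold (pseudocount 1) and −log10 p (Poisson upper tail, match within 0.001), for 99.8% and 99.9% of peaks and for every member peak; read totals are not used here. The recovery was tested on simulated data. The smallest called pileup was taken over peaks within 0.1 fragments of the scaled local background.

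Genes came from RefSeq (GRCm38.p6), as did promoter windows and strand, which 9 of 10 members have. Groups came from the labels. With 1 library per group no test was run. Alternatives covered thresholds, list length, windows, gene starts, local background and overlap. All members, wider-list genes with a gene-end peak, and neighbours at member summits were named. The wider list, like the members, was chosen with earlier results of these data known. Python 3.11.15, numpy 2.4.6, pandas 2.3.3, scipy 1.17.1 and matplotlib 3.10.9 were used.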

Additional observations from a re-analysis of the deposited data

How the results depend on the processing

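The count of members with a gene-end peak depended on the strength required of a peak. With a −log10 q of at least 5 it was 1 untreated (main value 3), 3 with adriamycin (main value 5) and 0 in both lists (main value 2), and a fold of at least 5 gave the same 1, 3 and 0. The shares of all genes were then 2.10% untreated and 7.12% with adriamycin, and 2.14% and 6.94% at that fold. For genes in both lists the share was not computed at either setting. The untreated gene left was Asz1, and the adriamycin genes left were Mov10l1, Mael and Ddx4. With lists of equal length the counts were 3 untreated and 3 with adriamycin, so that the excess in the adriamycin list was gone, and Piwil1 and Piwil2 were the genes lost. A window of 500 bp left 1 gene, Mael, in both lists. Ddx4 was lost because its summits lay 715 bp (untreated) and 672 bp (adriamycin) from the gene end, though 392 and 349 bp from its tabulated start. The share of all genes was not computed for this window. Members with a summit at an end, inside or within 50 kb fell from 8 to 4 untreated and 5 with adriamycin at a −log10 q of at least 5, to 3 and 5 at a fold of at least 5, and to 5 with adriamycin at equal length. That −log10 q kept only 3668 of 7043 untreated and 8441 of 16229 adriamycin peaks. The shares of all genes by this count were not computed at these settings, so the falls cannot be called particular to the members. Restricting peaks to those whose local background was at the genome-wide value left 0 members in every count, since each member peak had a local background of 1.22 to 3.93 times that value; it also left a gene-end peak at only 0.137% and 0.279% of all genes, so that 0 of 10 members says nothing about them. The other alternatives (a 2500 bp window, any base of a peak, gene starts only, 25 kb, and stricter overlap) stayed within 1.5 times of the main counts. No paired analysis was possible because each group had 1 library. Depth limits these comparisons. For 3 of 14 unmatched adriamycin and 0 of 4 unmatched untreated peaks, the scaled interval lay wholly above the smallest called pileup. A further Mov10l1 peak missed it where few like peaks set that minimum. No such count was made over all unmatched peaks of each list. The scaled intervals leave out the counting error of the other library, so these counts do not show a difference between the libraries.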

Other observations

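Within the wider list of genes linked to piRNAs, the 4 genes with a summit more than 1 kb inside them were the same in both libraries: Mov10, Tdrd7, Tsnax and Morc1. This is 13.3% of the 30 genes in each list, not far from 8.16% of all genes untreated and 17.9% with adriamycin. The share of all genes with such a summit in both lists was not computed, and gene length was not allowed for. The values below therefore only describe these genes. Mov10, the broadly expressed relative of Mov10l1, had a peak at 104804526 to 104804739 on chromosome 3 untreated and at 104804461 to 104804832 with adriamycin, with pileups of 17 (exact Poisson interval 9.90 to 27.2) and 18 (10.7 to 28.4). Tsnax, which encodes the translin partner TRAX, had 2 internal peaks in each list. The stronger had pileups of 24 (15.4 to 35.7) untreated and 32 (21.9 to 45.2) with adriamycin, with folds of 6.10 and 8.25, both above the pileup of any member gene-end peak. Tdrd7, a Tudor domain gene of germ granules and the lens, had pileups of 12 (6.20 to 21.0) and 16 (9.15 to 26.0). In Morc1, which encodes a protein needed for transposon silencing in the male germ line, the peak listed in both had pileups of 11 (5.49 to 19.7) and 14 (7.65 to 23.5). These genes were named after their values were seen.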
